A study of Mus musculus with 12 samples.

Results

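The 9 genes described here, Acta2, Tagln, Myh11, Cnn1, Myocd, Cspg4, Des, Higd1b and Rgs5, are markers of pericytes and vascular smooth muscle, and they were taken by symbol from a table of 22793 genes. All 9 were found, each with 1 entry. All mice were RIP-rtTA; TetO-VEGF-A. The rat insulin promoter drives the activator rtTA in beta cells, and with doxycycline (Dox) rtTA turns on VEGF-A from the TetO transgene. Both transgenes were present in all 4 groups, of 3 libraries each. Whole islets were taken with no Dox or after 1 week of Dox, and CD11b+ macrophages and CD31+ endothelial cells were sorted from dispersed islets, in either case after 1 week of Dox. The labels give neither age nor sex and list no sorted cells without Dox. Nothing in them says that replicates were different animals, and the p-values therefore reflect differences between libraries that may be technical.

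Pericytes wrap capillaries inside the vessel's basement membrane, and smooth muscle cells form a continuous contractile coat around arterioles. Together they are called mural cells. Vascular endothelial growth factor A acts on endothelial cells, and growing vessels gain or lose mural cover as they mature. No sorted mural fraction was among the groups, and neither CD11b nor CD31 is a mural marker, so the genes were read in whole islets and in fractions sorted for other cells.

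Many genes of the contractile coat are switched on by serum response factor (SRF) with its partner myocardin, the product of Myocd. SRF binds the CArG box, which is CC, then 6 bases of A or T, then GG. The promoter sequences of 5 of the 9 genes (Acta2, Cnn1, Cspg4, Des and Rgs5) were found in the RefSeq table of build GRCm38.p6. The other 4, Tagln, Myh11, Myocd and Higd1b, had no entry in it. The windows of Acta2 and Rgs5 are shown because these genes had the largest rise and the highest signal of the 9. Each covers the 250 bases before the RefSeq start, read 5′ to 3′ on the gene's strand, at chr19:34255374-34255623 (minus strand) for Acta2 and chr1:169655251-169655500 (plus strand) for Rgs5. Capitals mark matches to the CArG box with at most 1 G or C among the 6 core bases; the pattern reads the same on both strands, and overlapping matches were counted.
Acta2: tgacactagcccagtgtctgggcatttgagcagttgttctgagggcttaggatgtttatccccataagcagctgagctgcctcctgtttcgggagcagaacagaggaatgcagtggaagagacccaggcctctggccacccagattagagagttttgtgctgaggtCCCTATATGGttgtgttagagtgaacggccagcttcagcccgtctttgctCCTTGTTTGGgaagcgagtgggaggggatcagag
Rgs5: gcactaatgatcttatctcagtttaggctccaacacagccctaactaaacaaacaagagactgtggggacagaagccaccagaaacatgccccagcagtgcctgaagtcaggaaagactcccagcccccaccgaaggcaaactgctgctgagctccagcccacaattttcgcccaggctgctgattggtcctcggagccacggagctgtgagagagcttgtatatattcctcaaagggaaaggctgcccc
The Acta2 window held 2 such matches, beginning 84 and 34 bases before the start. The windows of Rgs5, Cnn1, Cspg4 and Des held 0. Of 32851 windows of the same length in the table, 8.59% held at least 1 such match and 0.67% at least 2, and 1.47% held a box without a G or C in its core. A match is a stretch of letters, and its absence from this window says nothing of sites elsewhere.

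Values are the authors' normalized signal on a linear scale whose floor is 1. Summed over genes, a library held a signal of 17635776 to 25226447. Numbers of reads were not analysed here, and values carry no counting interval. The genes of the 2 antigens used for sorting matched the labels, which says little of purity. Pecam1, the gene of CD31, stood at 57096 to 64909 in the CD31+ fraction and 738 to 772 in the CD11b+ fraction. Itgam, the gene of CD11b, stood at 11397 to 11460 in the CD11b+ fraction and 2.05 to 12.4 in the CD31+ fraction. Vegfa itself was not higher in the libraries labelled Dox (1580 to 2417) than in those labelled No Dox (3268 to 4514), and whether transcripts of the transgene count toward this gene is not given in the sources used here. Some libraries stood apart. Of the 6 islet libraries, No Dox replicate 2 and Dox replicate 1 deviated from their group toward GC-rich genes (Spearman's rho across genes of 0.66 and 0.61), and the other 4 toward GC-poor genes (-0.32 to -0.48). Of the sorted libraries, replicate 2 of both fractions held more acinar RNA than replicates 1 and 3, and replicate 3 of both held more of most of the 9 genes, as described below. In macrophage replicate 2 the 10 acinar markers made up 1.92% of the signal and the 10 macrophage markers 1.63%. The acinar share was 0.132 and 0.00624% in macrophage replicates 1 and 3.

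Across the 4 groups, 8 of the 9 genes had their highest mean in Dox islets and their lowest in the macrophage fraction. Cnn1 was the exception, at low values in all 12 libraries. For 7 of the 9, every Dox islet library lay above the other 9 libraries. Des was the gene besides Cnn1 whose Dox islet values overlapped another group. No Dox islets and endothelial cells took the middle places and overlapped for the 8 genes other than Cnn1; the No Dox mean was the higher of the 2 for Myh11, Cspg4, Des, Higd1b and Rgs5, and the endothelial mean for Acta2, Tagln and Myocd.

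**Figure D1:**
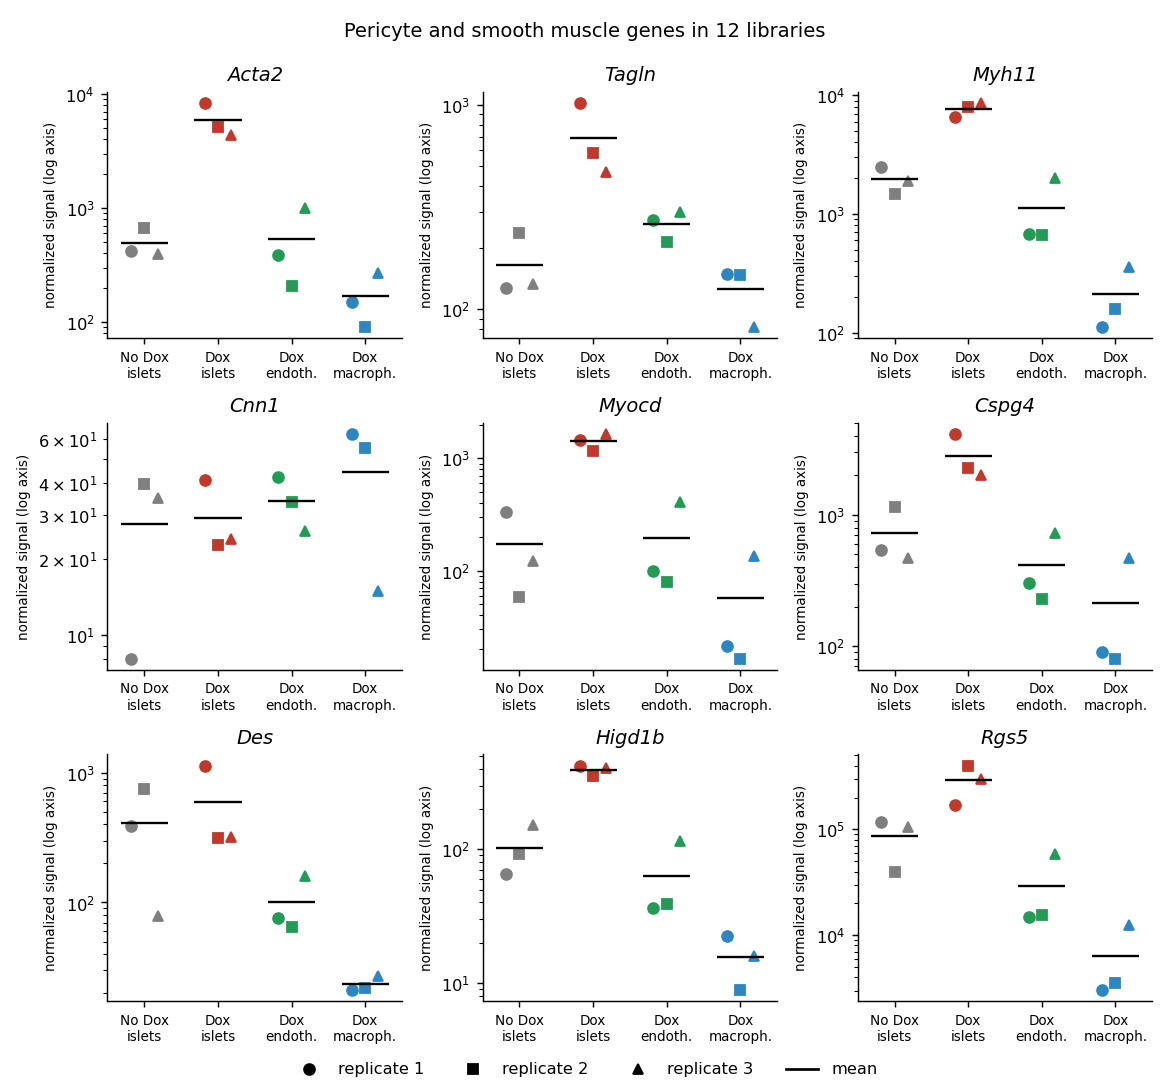
Normalized signal (log axis) of each of the 9 genes in the 12 libraries, 3 per group, with symbols for replicates 1, 2 and 3 and a line at the mean. Dox islets stand highest for 8 of 9 genes, and replicate 3 (triangles) is the highest endothelial library for 8 of 9.

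The contractile genes were compared first in whole islets, Dox against No Dox, which asks what differed in the islet as a whole after 1 week of Dox. No group had Dox without the transgenes, so Dox itself and VEGF-A cannot be told apart. Of the 9 genes, 8 reached the level needed for testing, and 6 of these rose (limma, adjusted p under 0.05): Acta2, Myocd, Tagln, Higd1b, Myh11 and Cspg4. In the same comparison 6.21% of 10232 genes tested rose. The groups did not overlap for 7 of the 8, against 17.2% of genes tested with all Dox libraries above all No Dox libraries. Of the No Dox libraries, 0 reached the minimum of 182.4 for Higd1b, 1 for Tagln, 1 for Myocd and 2 for Des, so these genes were tested only because of their Dox values. Whole islets mix all cell types, so more mural cells and more RNA per mural cell cannot be told apart.

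Acta2 (ENSMUSG00000035783, chromosome 19, 34315580 to 34329826, build mm9) encodes smooth muscle alpha-actin, the thin filament protein by which contractile mural cells are usually recognized. Its signal was 420, 667 and 395 in No Dox islets and 8333, 5140 and 4385 in Dox islets. Even the lowest Dox library was several times the highest No Dox library. The mean went from 494 ± 150.2 to 5953 ± 2096 (SD, n = 3), a log2 difference of 3.57 (SE 0.35, 95% interval 2.79 to 4.36, adjusted p = 0.00739). This was the largest rise of the 8. It passed under all 18 alternatives run (adjusted p 0.000160 to 0.0496), the lowest with the replicate block, although islet replicate numbers were not taken as pairing. Among its near relatives, the enteric smooth muscle actin Actg2 was low in No Dox islets (4.73, 11.3 and 2.99) and higher in Dox islets (145, 154 and 90.4), below the level needed for testing. The sarcomeric actins Acta1 and Actc1 of striated muscle were low in all 6 islet libraries, at 1.00 to 17.8 and 1.00 to 44.2. Coding sequences of these actins are nearly alike, and how reads that fit several of them were assigned is not given in the sources used here. Actb, the cytoplasmic beta-actin, had a log2 difference of 1.35 (adjusted p = 0.0756).

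Myocd (ENSMUSG00000020542, chromosome 11, 64990063 to 65083491), the SRF coactivator of smooth muscle genes, had the next largest difference. Its values were 335, 58.8 and 121 without Dox and 1450, 1164 and 1636 with Dox. The Dox libraries were close to each other, while the No Dox libraries spread over a wide range, with replicate 1 the highest. The log2 difference was 3.38 (SE 0.57, adjusted p = 0.0131), from a mean of 172 ± 145 to 1417 ± 238 (SD, n = 3). Leaving out Dox replicate 2 or Dox replicate 3 ended the call (adjusted p = 0.0754 and 0.0536), as did testing with no filter (0.126). The gene of SRF itself, Srf, did not pass (log2 difference 0.37, adjusted p = 0.765), nor did those of its other partners Mkl1 (0.47, 0.649) and Mkl2 (0.62, 0.266).

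Myh11 (ENSMUSG00000018830, chromosome 16, 14194620 to 14291501) encodes the smooth muscle myosin heavy chain, the motor of the thick filament. It was read at 2503, 1466 and 1896 without Dox and 6501, 7894 and 8578 with Dox. Both groups were tight and well separated, at 1955 ± 521 and 7658 ± 1058 (SD, n = 3), a log2 difference of 1.99 (SE 0.30, adjusted p = 0.0112). The call was lost without Dox replicate 2 (adjusted p = 0.0754) and with no filter (0.0613). Of the non-muscle myosins, Myh9 rose (adjusted p = 0.0207) and Myh10 had a log2 difference of -0.60 (adjusted p = 0.345).

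Tagln (ENSMUSG00000032085, chromosome 9, 45737711 to 45744141) encodes transgelin or SM22, an actin-binding protein of the calponin family. Its signal was 127, 236 and 133 in No Dox islets and 1021, 585 and 470 in Dox islets. The 2 ranges were apart, with Dox replicate 1 the highest. The log2 difference was 2.04 (SE 0.44, adjusted p = 0.0269), and the call depended on most libraries: leaving out any 1 library other than No Dox replicate 2 gave an adjusted p of 0.0526 to 0.108. The call was also lost with no filter (adjusted p = 0.126) and without both No Dox replicate 2 and Dox replicate 1 (0.0553). In the annotation 65 of its 1586 exon bases also belong to Pcsk7 on the opposite strand, and whether counting used strand is not given in the sources used here. Its relative Tagln2 also rose (1.53, adjusted p = 0.0170).

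Cnn1 (ENSMUSG00000001349, chromosome 9, 21903725 to 21914074), which encodes calponin 1, an actin-binding protein of differentiated smooth muscle, did not follow. Values were 8.06, 39.6 and 34.9 without Dox and 41.0, 22.7 and 23.9 with Dox, so the ranges overlapped, at a level too low to test. With a lower minimum of 15.48, chosen after the data were seen, the log2 difference was 0.30 (SE 0.80, adjusted p = 0.897). Its relative Cnn2, found in many non-muscle cells, rose from 384, 357 and 452 to 2280, 2650 and 2120 (log2 difference 2.56, adjusted p = 0.00891). Cnn3 had a log2 difference of 1.11 (adjusted p = 0.0851).

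**Figure D2:**
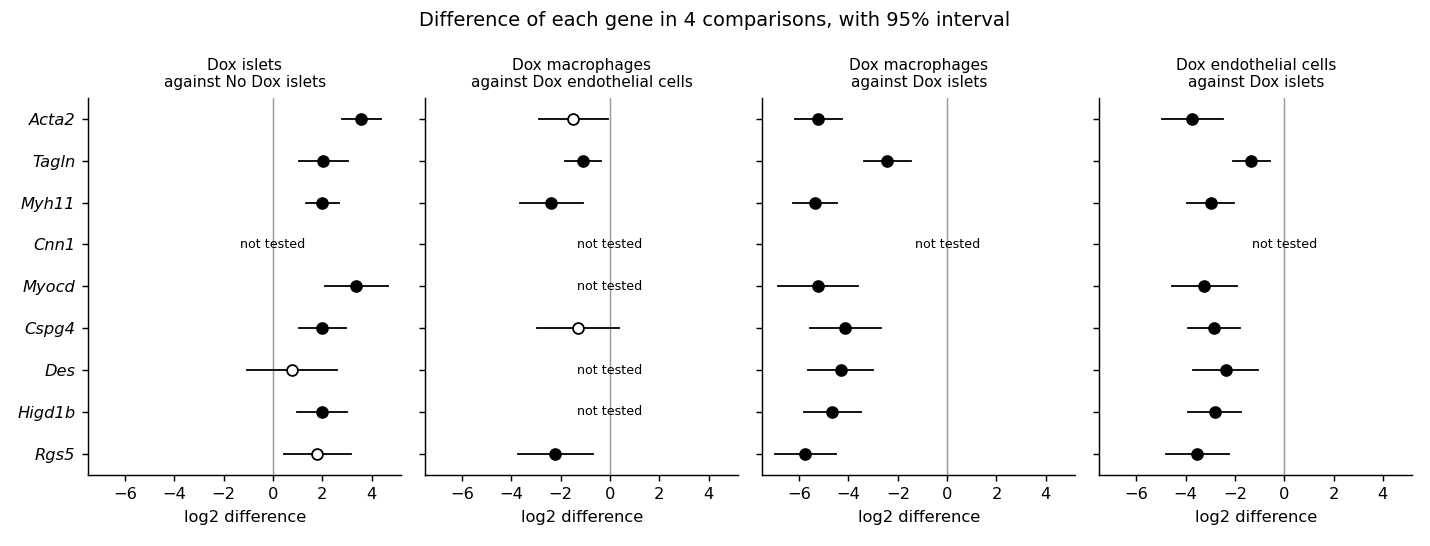
Log2 difference of each gene with its 95% interval in 4 comparisons, with filled points for an adjusted p under 0.05 and open points otherwise. In islets Acta2 (3.57) and Myocd (3.38) lie farthest to the right, and Des (0.76) has the widest interval; the last 2 panels share the Dox islet libraries.

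Of the 4 pericyte genes, 2 passed, Cspg4 and Higd1b, and 2 did not, Rgs5 and Des. Rgs5 (ENSMUSG00000026678, chromosome 1, 171585632 to 171625944) encodes a regulator of G protein signalling that is among the most abundant pericyte transcripts. Its signal was 116585, 39379 and 104778 without Dox and 170137, 400951 and 299475 with Dox. Every Dox library was above every No Dox library, but each group spread widely, with No Dox replicate 2 and Dox replicate 1 the lowest of their groups. The means were 86914 ± 41588 and 290188 ± 115687 (SD, n = 3), and the log2 difference of 1.80 (SE 0.60, 95% interval 0.46 to 3.15) did not pass (adjusted p = 0.0974). It passed when values were quantile normalized (adjusted p = 0.0207), after the GC trend of every library had been taken out (0.0133) and when those 2 libraries were left out (0.0374).

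Among all genes, Rgs5 had the highest signal in each of the 3 Dox islet libraries, where it made up 0.860, 1.59 and 1.25% of the summed signal. Without Dox it ranked 2, 13 and 6. Levels of different genes can be compared only per length, and here only if the signal scales with transcript length, which the labels do not say. Per kilobase of exon, its rank was 7, 4 and 4 with Dox and 10, 25 and 20 without. On that scale its mean level in Dox islets was 63792 per kilobase, against 3342 for Acta2, 1155 for Myh11, 464 for Higd1b and 12.3 for Cnn1. Of other members of its family, Rgs4 had a log2 difference of 1.05 (adjusted p = 0.110), Rgs2 -0.10 (0.950) and Rgs16 fell by 1.42 (adjusted p = 0.0377).

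Cspg4 (ENSMUSG00000032911, chromosome 9, 56712911 to 56747677) encodes NG2, a surface proteoglycan used as a pericyte marker. Its values of 545, 1155 and 470 without Dox and 4114, 2267 and 2006 with Dox did not overlap. No Dox replicate 2 and Dox replicate 1, the GC-rich libraries, were the highest of their groups. The log2 difference was 1.99 (SE 0.42, adjusted p = 0.0256), and leaving out any 1 of Dox replicates 2 and 3 or No Dox replicates 1 and 3 gave an adjusted p of 0.0545 to 0.0923. The call was also lost with all 4 groups fitted together (adjusted p = 0.0579) and with no filter (0.164).

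Higd1b (ENSMUSG00000020928, chromosome 11, 102697163 to 102699354), a small gene of a hypoxia-inducible domain family that marks pericytes in several tissues, was read at 65.9, 91.8 and 151 without Dox and 423, 352 and 405 with Dox. The Dox libraries were close together and all above the No Dox range. The log2 difference was 2.00 (SE 0.45, adjusted p = 0.0298). The call was lost under 7 of 17 alternatives, among them no filter (adjusted p = 0.0975) and the replicate block (0.0610). It was also lost without Dox replicate 1 (0.0805), Dox replicate 2 (0.123), Dox replicate 3 (0.112) or No Dox replicate 1 (0.0603). Its relative Higd1a had a log2 difference of 0.25 (adjusted p = 0.848).

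Des (ENSMUSG00000026208, chromosome 1, 75356904 to 75365154) encodes desmin, the intermediate filament protein of muscle and of many pericytes. Its values were 389, 749 and 79.3 without Dox and 1132, 314 and 321 with Dox, and the ranges overlapped. The log2 difference of 0.76 had an interval of -1.07 to 2.59 (adjusted p = 0.664), which spans 0, and without No Dox replicate 3 it was -0.15. Other intermediate filament genes rose, namely Vim, vimentin (2.48, adjusted p = 0.0112), and Nes, nestin (2.29, adjusted p = 0.0113). The annotation places an antisense transcript over 220 of the 3754 exon bases of Des.

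The GC-rich libraries split the 9 genes. No Dox replicate 2 and Dox replicate 1 were both the highest of their groups for 5 genes, Acta2, Tagln, Cnn1, Cspg4 and Des, and both the lowest for 2, Myh11 and Rgs5. Within this pair (1 library a group) and within the other 4 libraries, the log2 difference was 3.64 and 3.54 for Acta2, 2.15 and 1.92 for Myh11, 2.11 and 2.01 for Tagln, 1.83 and 2.07 for Cspg4, 2.19 and 1.91 for Higd1b, and 2.11 and 1.65 for Rgs5. Myocd differed more, at 4.60 and 2.77. Each of these differences was above 0 in both sets.

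Genes linked to mural cells were also read from lists that do not hold the 9, and not all of them are particular to mural cells. Of 22 further genes of the smooth muscle contractile apparatus and SRF programme, 20 were tested, 10 rose and 0 fell, with a median log2 difference of 1.49 against 0.11 for all genes tested. Tpm2, a tropomyosin, rose by 2.48 (adjusted p = 0.0112), from 218, 279 and 422 to 1696, 1881 and 1415. Mylk, the myosin light chain kinase that starts smooth muscle contraction, rose by 1.93 (adjusted p = 0.0118), and Tpm1 by 1.74 (adjusted p = 0.0112). Cald1, caldesmon, had a log2 difference of 2.01 that did not pass (adjusted p = 0.0530). Flna rose by 2.12 (adjusted p = 0.0269), but its mean was 8882 in Dox islets, 10804 in endothelial cells and 9392 in macrophages. The means of Tpm2 in these groups were 1664, 209 and 41.9.

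Of 20 further pericyte genes, 17 were tested, 6 rose and 0 fell. Mcam, also present in endothelial cells, rose by 2.20 (adjusted p = 0.0113), Ednra, the endothelin A receptor, by 2.16 (0.0183) and S1pr3, a sphingosine 1-phosphate receptor, by 1.64 (0.0128). Abcc9, the sulphonylurea receptor subunit of the vascular potassium channel, had a log2 difference of 1.16 (adjusted p = 0.160). Of 22 relatives of the 9 genes in the table, 17 were tested, 5 rose and Rgs16 fell.

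Markers of other cell types moved in the same comparison. Of 9 endothelial markers tested 6 rose (median log2 difference 1.41), of 9 macrophage markers 7 rose (1.59), and of 11 fibroblast markers 5 rose (1.64). Of 10 beta cell markers 6 fell (-1.67) and 0 rose. The 10 endothelial markers together made up 0.155 to 0.202% of the signal without Dox and 0.373 to 0.512% with Dox, the 12 fibroblast markers 0.108 to 0.199% and 0.295 to 0.531%, the 10 macrophage markers 0.0171 to 0.0398% and 0.0563 to 0.105%, and the 10 beta cell markers 1.83 to 3.02% and 0.837 to 0.902%. Acinar markers overlapped between groups, at 0.169 to 0.664% and 0.414 to 1.35%, with 0 of 10 called (limma, adjusted p). On the same scale Acta2, Tagln, Myh11, Cnn1 and Myocd together made up 0.0113 to 0.0158% and 0.0587 to 0.0877%. The 12 striated muscle markers stood at 0.000122 to 0.000517% in all 6 islet libraries, with 0 tested. The part of these other cell types in the changes of the 9 genes was not tested.

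**Figure D3:**
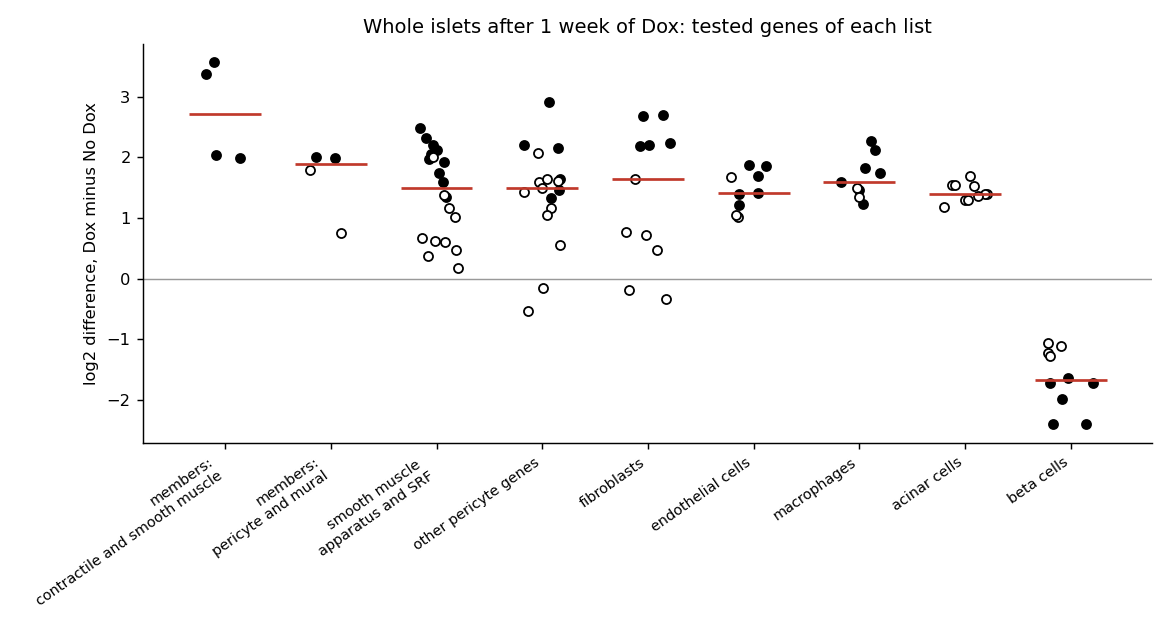
Log2 difference, Dox minus No Dox, of the tested genes of each list in whole islets, 1 point per gene, filled for an adjusted p under 0.05, with a red line at the median. Points of the mural, fibroblast, endothelial and macrophage lists lie mostly above 0 and those of the beta cell list below 0.

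In the sorted fractions 8 of the 9 genes were much lower than in whole Dox islets, Cnn1 being the exception. The labels do not say whether both came from the same animals. Both fractions were compared with the same 3 Dox islet libraries, so the values are given side by side and the 2 comparisons are not independent. All 8 tested genes were lower in macrophages (31.3% of 10707 genes tested were) and all 8 were lower in endothelial cells (17.5% of 10204). Only Rgs5 reached the level needed for testing in all 3 macrophage libraries, and in endothelial cells Acta2, Tagln, Myh11, Cspg4 and Rgs5 did so. The other genes were tested only because of their islet values, which are the higher ones. Cnn1 was not tested in either comparison.

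Acta2 stood at 390, 209 and 1001 in endothelial cells and 149, 89.8 and 267 in macrophages, against 4385 to 8333 in Dox islets. The log2 difference from islets was -3.72 (SE 0.53, adjusted p = 0.00106) in endothelial cells and -5.22 (SE 0.41, adjusted p = 1.01e-05) in macrophages. Its endothelial mean of 533 ± 415 was 8.96% of the Dox islet mean (6.56, 3.51 and 16.8% in replicates 1, 2 and 3), close to the 494 ± 150.2 of No Dox islets (SD, n = 3), and those 2 groups overlapped. The macrophage mean was 2.83% of the islet mean (2.50, 1.51 and 4.49%).

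Rgs5 was still abundant in the sorted cells, at 15000, 15427 and 57986 in endothelial cells and 3051, 3498 and 12399 in macrophages. Among all genes it ranked 175, 197 and 19 in the endothelial libraries and 1773, 1562 and 232 in the macrophage libraries. As a share of the Dox islet mean, endothelial replicates 1 and 2 stood at 5.17 and 5.32% and the group at 10.2%, and macrophage replicates 1, 2 and 3 stood at 1.05, 1.21 and 4.27%. The log2 differences from islets were -3.52 (adjusted p = 0.00189) and -5.75 (adjusted p = 2.77e-05).

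Myocd was read at 99.3, 79.8 and 407 in endothelial cells and 21.5, 16.5 and 135 in macrophages, with replicate 3 the highest of each. The log2 differences from Dox islets were -3.24 (adjusted p = 0.00311) and -5.22 (adjusted p = 0.000240). Myh11 differed from islets by -2.98 (adjusted p = 0.000901) and -5.35 (adjusted p = 7.16e-06) on the same scale. For Cspg4 these values were -2.85 (adjusted p = 0.00192) and -4.13 (adjusted p = 0.000497). Higd1b stood at 36.4, 39.1 and 116 in endothelial cells and 22.3, 8.88 and 15.8 in macrophages, all below the lowest Dox islet value of 352, with log2 differences of -2.81 (adjusted p = 0.00236) and -4.65 (adjusted p = 6.81e-05).

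Tagln kept the largest share of its islet level among the 8 tested genes. Its endothelial values were 275, 213 and 299 and its macrophage values 148, 147 and 81.6, which are 37.9 and 18.2% of the islet mean. The log2 difference from islets was -1.33 (adjusted p = 0.0162) in endothelial cells. That call was lost under 3 of 16 alternatives, among them without endothelial replicate 1 (0.0515) and without endothelial replicate 2 (0.0703). In endothelial replicates 1 and 2, Myocd, Myh11, Cspg4 and Higd1b stood at 5.63 to 10.8% of their islet means, and in replicate 3 at 25.9 to 29.4%. For Des, the endothelial call (log2 difference -2.38, adjusted p = 0.0149) was lost under 4 of 16 alternatives. Among them were the fits without endothelial replicate 1 (0.0551) and without endothelial replicate 2 (0.0571). Cnn1 was read at 42.5, 33.5 and 25.8 in endothelial cells and 62.4, 55.1 and 14.9 in macrophages, ranges that overlapped those of both islet groups.

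Genes of the further lists were counted in the same comparisons. Of 17 further pericyte genes tested, 16 were lower in macrophages than in Dox islets, and 15 were lower and 1 higher in endothelial cells. The gene that was higher in endothelial cells was Mcam (log2 difference 0.82, adjusted p = 0.0411), at 17491, 16031 and 12912 against 11411, 9363 and 6116 in Dox islets. Of 20 contractile and SRF genes tested, 16 were lower and 1 higher in macrophages, and 9 were lower and 4 higher in endothelial cells, where the median log2 difference was -0.37. Fibroblast markers were lower in 11 of 11 tests for macrophages and 10 of 11 for endothelial cells.

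Between the fractions, 5 of the 9 genes were tested and 3 were lower in macrophages: Myh11, Rgs5 and Tagln (36.0% of 10164 genes tested were lower). Rgs5 reached the level needed for testing in all 3 macrophage libraries, Myh11, Acta2 and Cspg4 in 1 each and Tagln in 0, so these 4 were tested only because of their endothelial values. The replicate numbers were taken as pairing these libraries because of correlations in these same values, and the labels do not state it. With the replicate as a block all 5 tested genes were lower (38.4% of genes tested). Myh11 stood at 111, 159 and 359 in macrophages and 671, 665 and 2008 in endothelial cells, without overlap, a log2 difference of -2.38 (SE 0.55, adjusted p = 0.00539). For Rgs5 the log2 difference was -2.22 (SE 0.66, adjusted p = 0.0176). Its call was lost under 4 of 19 alternatives, among them without macrophage replicate 1 (0.0657) and without macrophage replicate 2 (0.0623). Tagln differed by -1.09 (SE 0.32, adjusted p = 0.0162). This was lost under 3 of 18 alternatives, among them without endothelial replicate 1 (0.0564) and without endothelial replicate 3 (0.0584).

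Acta2 and Cspg4 overlapped between the fractions, since macrophage replicate 3 was above the lowest endothelial library for both. Acta2 had a log2 difference of -1.50 (adjusted p = 0.0584), which passed with the replicate block (adjusted p = 0.00148), without macrophage replicate 3 (0.0230) and without endothelial replicate 2 (0.0200). Cspg4 stood at 90.0, 80.5 and 468 in macrophages and 302, 227 and 725 in endothelial cells, a log2 difference of -1.29 (adjusted p = 0.150), which passed with the replicate block (0.00697) and without macrophage replicate 3 (0.00453). The other 4 genes were below the level needed for testing. With the lower minimum chosen after the data were seen, Des (21.3, 21.9 and 27.2 in macrophages, 75.3, 64.5 and 160 in endothelial cells) differed by -1.94 (adjusted p = 0.00585) and Higd1b by -1.83 (0.0259), while Myocd at -1.98 (0.0917) and Cnn1 at 0.16 (0.829) did not pass; at this minimum 31.5% of genes tested were lower.

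In each fraction 1 library stood above the others in most of the 9 genes. Endothelial replicate 3 was the highest of its group for 8 of the 9 genes and macrophage replicate 3 for 6, and in 6 genes it was the highest in both. Relative to the mean of replicates 1 and 2, endothelial replicate 3 was 4.55 times as high for Myocd, 3.81 for Rgs5, 3.34 for Acta2, 3.06 for Higd1b, 3.01 for Myh11, 2.74 for Cspg4 and 2.29 for Des. It was 1.23 times as high for Tagln and 0.680 times for Cnn1. In all, 7 of the 9 genes were at least 2 times as high, as were 4.997% of 13469 genes at or above the lower minimum in 1 library of that group.

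Macrophage replicate 3 was 7.10 times the mean of the other 2 for Myocd, 5.48 for Cspg4, 3.79 for Rgs5, 2.67 for Myh11 and 2.24 for Acta2. Des and Higd1b stood at 1.26 and 1.02 times, Tagln at 0.552 and Cnn1 at 0.254. Here 5 of 9 genes were at least 2 times as high, as were 9.40% of 14135 genes. Cnn1 was below the other replicates in both fractions.

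Lists of other genes were read in the same way. In endothelial replicate 3, 12 of 19 further pericyte genes were at least 2 times the mean of the other replicates (median ratio 2.67). In macrophage replicate 3, 10 of 14 were (3.43). Of the further contractile and SRF genes, 5 of 22 were at least 2 times as high in endothelial replicate 3 (median ratio 1.17) and 5 of 20 in macrophage replicate 3 (1.16). Fibroblast markers had medians of 2.67 and 1.75 times. Markers of the sorted cells themselves did not, with a median of 0.898 times for endothelial markers in endothelial replicate 3 and 1.01 times for macrophage markers in macrophage replicate 3; the median of all genes was 0.967 and 0.971 times. Macrophage markers had a median of 4.27 times in endothelial replicate 3, and the 10 together made up 0.00164, 0.00222 and 0.00366% of the signal of replicates 1, 2 and 3. Acinar markers went the other way, at 0.0261, 0.541 and 0.00138% in the endothelial and 0.132, 1.92 and 0.00624% in the macrophage libraries. The part of these cell types in the mural values was not tested.

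**Figure D4:**
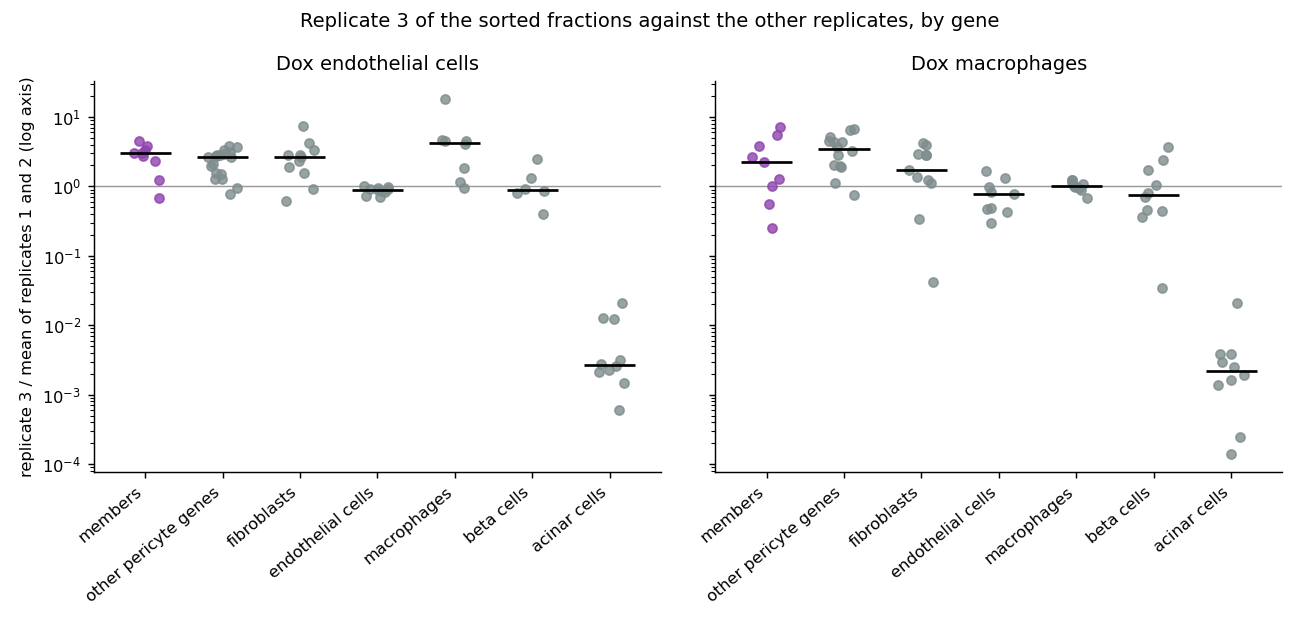
Ratio of replicate 3 to the mean of replicates 1 and 2 (log axis) for single genes of each list in the endothelial and the macrophage fraction, with a line at the median. The 9 genes reach 4.55 times in endothelial cells and 7.10 times in macrophages, while markers of the sorted cells lie near 1 and acinar markers far below it.

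Leaving out replicate 3 of both fractions was an alternative added after the data were seen. Without it, 5 of 5 tested genes were lower in macrophages than in endothelial cells, against 3 with all libraries. Of all 10164 genes tested, 3890 were lower at this setting, against 3654 with all libraries. Without replicate 2 of both fractions, 2 of the 5 genes and 2772 of all genes tested were lower. Replicate 3 is where most of the genes described here stood high, so leaving it out is not independent of the values tested.

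Genes of most similar pattern were found by Pearson's r of log2 signal over the 12 libraries, among 11608 genes. This is a description, since the 12 points are 4 groups of 3 libraries and not independent. Closest to Acta2 were Frem2 (0.959), Aoc3 (0.952), Cspg4 (0.949), Sept8 (0.943) and Myl9 (0.943). Frem2 encodes an extracellular matrix protein, Aoc3 the amine oxidase VAP-1, and Myl9 the regulatory light chain of smooth muscle myosin. Frem2, for example, was read at 282, 128 and 87.4 without Dox, 1693, 1630 and 1745 with Dox, 101, 95.2 and 557 in endothelial cells and 33.8, 15.2 and 99.8 in macrophages. Of the 9 genes themselves, Higd1b (0.928), Myocd (0.923) and Myh11 (0.908) followed.

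Closest to Rgs5 were Gucy1a3 (0.995), Ednra (0.994), Ddr2 (0.992), Lhfp (0.991) and Gas1 (0.991). Gucy1a3 encodes a subunit of the soluble guanylate cyclase that senses nitric oxide, and Ddr2 a collagen receptor. Gucy1a3 stood at 6119, 2639 and 6247 without Dox, 9729, 16108 and 14466 with Dox, 657, 684 and 2254 in endothelial cells and 144, 192 and 610 in macrophages. It shared with Rgs5 the low No Dox replicate 2 and Dox replicate 1 and the high replicate 3 of both fractions. Myh11 (0.985) was the gene of the 9 nearest to Rgs5, and Tagln (0.612) the farthest of the 7 compared with it; Acta2 and Rgs5 stood at 0.865 to each other.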

How the data were processed

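RNA from islets or sorted cells was amplified with a NuGEN Ovation kit and sequenced on an Illumina HiSeq2500, per the labels' protocols. The authors deposited 1 table of normalized signal values on a linear scale. How they were normalized and counted, and with what use of strand, is not stated in the labels or header. Per the submitters' processing notes, the tools and builds used include TopHat2 2.0 and build mm9. From 22793 entries 22711 genes were kept: 25 date-like symbols were repaired by Ensembl ID, and 76 repeated symbols kept their most abundant entry. All 9 members have the same coordinates in GENCODE M1.

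Tests used log2(signal + 1), a scale that understates changes of low genes, with limma 3.58.1 in R 4.3.3 (linear model of the 6 libraries compared, variance trend, two-sided, Benjamini-Hochberg over all genes tested, threshold 0.05). Genes were tested at a signal of at least 182.4, the 40th percentile of values above the floor, in at least 3 of the 6 libraries. The members, gene lists, filters and tests were chosen with earlier results of these data known. All members are named; of each other list, a count and the 3 genes of smallest adjusted p plus the most abundant gene that did not pass were eligible as examples; relatives are named beside the member they resemble; for likeness, the 5 genes of highest r are named. Pcsk7, Pecam1, Itgam and Vegfa are named outside this rule.

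Same-numbered macrophage and endothelial libraries deviated together (r across 11608 genes of 0.23, 0.47 and 0.42 for numbers 1, 2 and 3), so these numbers were taken as pairing; the labels do not state it. Alternatives were other filters, pseudocounts, scalings, removal of the GC trend, a fit of all 4 groups, no variance trend, the replicate block and leaving out libraries.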

Additional observations from a re-analysis of the deposited data

How the results depend on the processing

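In islets, Acta2 passed under all 18 alternatives, and of 140 results of tested members under alternatives 111 kept their direction and call, 25 lost the call, 3 gained it (all Rgs5) and 1 reversed (Des, -0.15 without No Dox replicate 3, and up to 1.46 without No Dox replicate 2). The 866 genes called became 97 with no filter, 1595 with the GC trend removed, 1511 with all 4 groups fitted together, 371 without No Dox replicate 2 and Dox replicate 1, and 5 to 737 when 1 library was left out, the lowest being for Dox replicate 2, with 158 for Dox replicate 3 and 575 for No Dox replicate 1. The 6 members called became 1 with no filter, 3 with the stricter filter of 1254, at which fewer genes are tested, and 1 to 6 when 1 library was left out. It was 3 when No Dox replicate 1 was dropped, 2 when Dox replicate 3 was, and 1 when Dox replicate 2 was. Higher genes were 73.3% of those called, against 56.3% with quantile normalization, 60.7% with median ratio rescaling and 57.9% with the GC trend removed, which moved the median of all genes from 0.11 to -0.04, -0.02 and -0.02; Acta2, Tagln, Myh11, Myocd, Cspg4 and Higd1b were called higher under each.

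Between the fractions, the 6642 genes called became 3776 with the stricter filter. The 3 members called became 1 with no filter, 1 with the stricter filter, 5 with the replicate block, 5 with the lower filter, 5 without replicate 3 of both fractions, and 2 to 5 when 1 library was left out, the highest without macrophage replicate 3. Against Dox islets, the stricter filter left 3127 of 5993 genes and 4 of 8 members in macrophages. In endothelial cells it left 1537 of 3210 genes and 4 of 8 members, and no filter left 5 members. Over both of these comparisons together, leaving out 1 library gave 2110 genes (without endothelial replicate 1) to 6180 (without Dox islet replicate 1). For macrophages against islets, 132 of 132 results of tested members kept direction and call, and for endothelial cells 124 of 132. The cause of these changes was not tested. In the other 3 comparisons the replicate numbers were not taken as pairing. There r of same-numbered libraries was -0.24, -0.64 and 0.21 in islets and 0.22, 0.09 and 0.04 for macrophages against Dox islets. For endothelial cells against Dox islets it was 0.30, -0.01 and 0.06. In islets some differently numbered libraries deviated together more. There r was 0.84 for Dox replicate 1 with No Dox replicate 2, 0.67 for Dox 2 with No Dox 3 and 0.43 for Dox 3 with No Dox 1. The other differently numbered islet pairs had r of -0.64, -0.04 and -0.56. What these islet libraries share was not tested. The replicate block left 630 genes called in islets and ended the call of Higd1b (limma, adjusted p = 0.0610). In islets this block joined same-numbered libraries, which for numbers 1 and 2 deviated in opposite directions. Its islet results therefore do not stand for a known pairing. The lower filter and the settings without 1 number of both fractions were chosen after the data were seen. Read depth is not known, so a limit for low values such as those of Cnn1 cannot be given.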
